A study of Mus musculus with 6 samples.

Results

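The Wnt pathway genes are described here in muscle satellite cells of mice homozygous for a deletion in Lmna, the gene of the nuclear lamina proteins lamin A and C. Satellite cells lie along muscle fibres and form new fibres after injury. The 52 genes were taken by symbol out of 39059 genes counted: 19 Wnt ligands, 10 Frizzled receptors, 4 co-receptors, 7 secreted inhibitors, 5 R-spondins and ubiquitin ligases that set Frizzled levels, 3 genes of β-catenin and its scaffold, and 4 nuclear factors. Homozygous mutants (Lmna Δ8-11 -/-, called HOM) were compared with wild-type mice (Lmna Δ8-11 +/+, called WT), 3 RNA-seq libraries of each. The allele lacks exons 8 to 11 of Lmna, by its name. Both groups were C57BL/6J mice at postnatal day 19, and cells of hind-limb muscle were sorted by FACS and taken for RNA without culture. The sort's markers, the animals' sex and any promoter or Cre are not given in the labels. Although 3 mice were used for each genotype, no label says which library came from which animal, so the p-values measure the spread between these samples, which may be partly technical.

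Wnt proteins are secreted lipid-modified ligands that bind Frizzled receptors on nearby cells. With the co-receptors Lrp5 and Lrp6 they stop a scaffold built on Axin from marking β-catenin for destruction, and β-catenin then acts with TCF/LEF factors on target genes. Other Wnts, Wnt5a among them, signal through Ror co-receptors and planar polarity proteins without β-catenin. In skeletal muscle the pathway is known for its part in satellite cell quiescence, expansion and differentiation, and for restraining the formation of fat cells from fibro-adipogenic precursors.

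Gene-assigned reads ran from 6613636 to 9552751 per library. Lmna itself was at 419 ± 39.9 CPM (reads scaled to the library's total) in HOM libraries and 943 ± 107 CPM in WT libraries (SD, n = 3 each). On the log2 scale it fell by 1.17 (SE 0.14, adjusted p = 0.0010 by edgeR's quasi-likelihood test with Benjamini-Hochberg adjustment). Gene counts cannot separate the deleted exons from the kept ones, so this is a partial check of the labels. HOM replicate 2 stood apart from the other HOM libraries. The satellite cell markers summed to 2119 CPM in it, against 1263 to 1264 CPM in HOM replicates 1 and 3 and 2495 to 2674 CPM in WT libraries. Y-linked reads were found in HOM replicate 2 and in WT replicates 2 and 3. The ribosomal-repeat gene Gm42418 was at 13027 CPM of unscaled totals in HOM replicate 2 and 13900 in WT replicate 2, and at 914 to 1797 in the other 4 libraries. Where leaving out HOM replicate 2 changed a call or the direction of a Wnt gene, the value without it is given.

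The data showed lower RNA of several Wnt ligands, receptors and inhibitors in HOM cells. None of the 3 tested genes of β-catenin and its scaffold or the 3 tested nuclear factors passed. With 21.1% of all genes called, these are too few genes for a contrast with the other roles. Wnt5a, Wnt10a, Wnt6, Fzd2, Fzd1, Ror1, Sfrp1 and Dkk2 fell, and Dkk3 rose. Enough reads for a test were found for 35 of the 52 genes, so 17 were not tested. Of the 35 tested, 8 were lower (22.9%) and 1 was higher (2.86%), 25.7% in all at an adjusted p under 0.05. Over all 14099 genes tested, 21.1% were called, 11.5% lower and 9.67% higher, so the share called in either direction was near the background. The share called lower was above its background and the share called higher below it, with no test of these shares. The median log2 fold change was -0.32 over the 35 genes and 0.00 over all genes. It was negative for 27 of the 35 genes and positive for 8. Wnt10a and Dkk2 met the minimum of reads for a test only through WT libraries, as every HOM library fell short of it. Their negative direction and the gap between their groups were therefore fixed by this filter. For Wnt5a, Wnt4, Rspo1 and Sfrp4 some HOM libraries fell short, so their negative direction partly follows from it. The share called lower, these direction counts and the median partly reflect the filter. All HOM values lay below all WT values for 14 of the 35, Wnt10a and Dkk2 among them, and above them for 2. The shares of all genes tested were 20.6% and 20.2%.

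**Figure D1:**
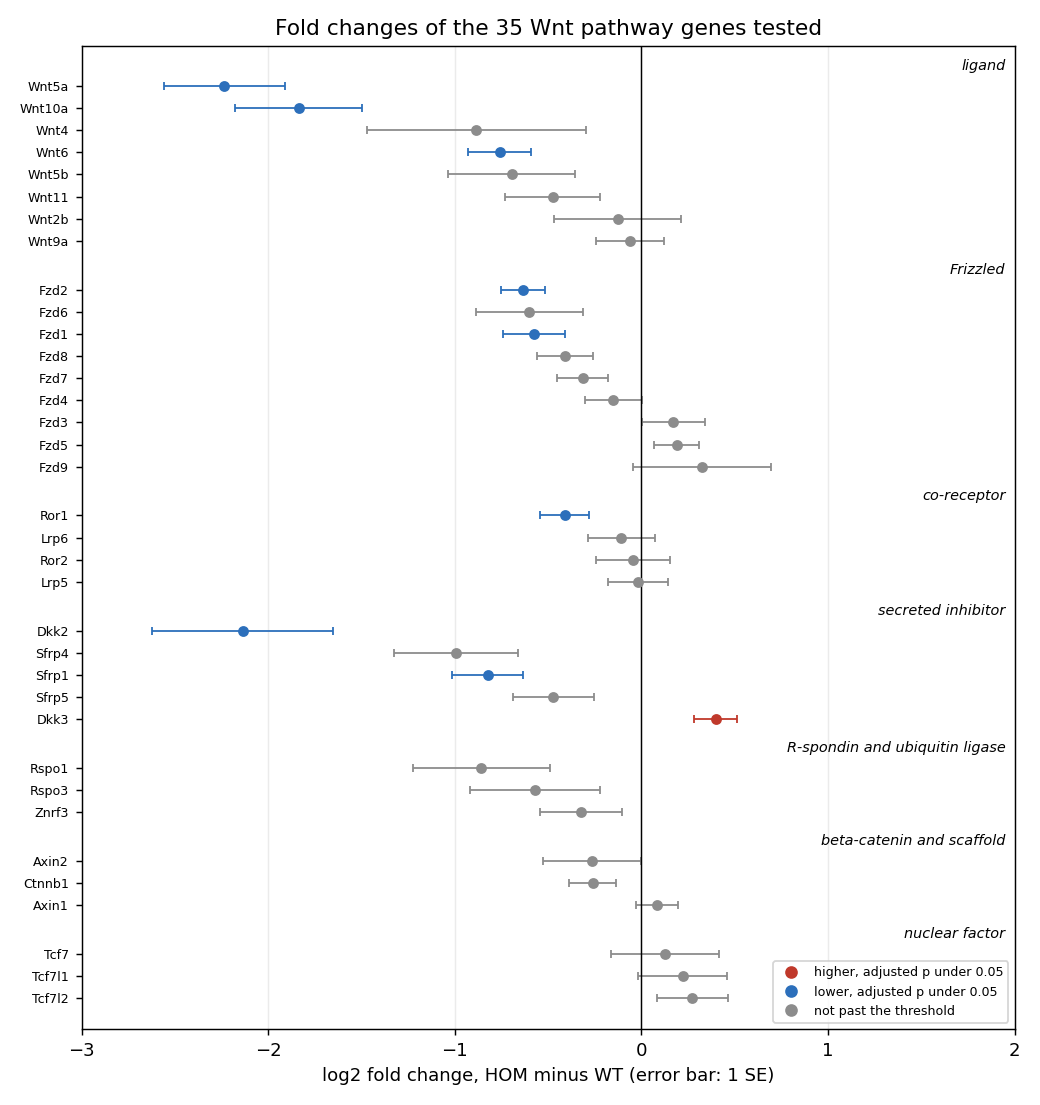
Log2 fold change of each tested Wnt pathway gene, HOM minus WT (x axis; error bars are 1 SE), grouped by role. The 8 genes lower past the threshold run from -2.24 for Wnt5a to -0.41 for Ror1, and Dkk3 at 0.40 is the 1 gene higher.

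Promoter sequence was at hand for 35 of the 52 genes (45 windows), credited to RefSeq on GRCm38.p6, and for 4 of the 9 called. The 250 bases before the RefSeq start of these 4 are shown because they are the starts of genes whose RNA fell. They lie at chr1:74771642-74771891 (plus strand, Wnt6), chr5:4758217-4758466 (minus strand, Fzd1), chr4:100095541-100095790 (plus strand, Ror1) and chr3:132085042-132085291 (plus strand, Dkk2). The Fzd1 start lies upstream of its GENCODE start. Each is written 5′ to 3′ with every CG in capitals.
Wnt6: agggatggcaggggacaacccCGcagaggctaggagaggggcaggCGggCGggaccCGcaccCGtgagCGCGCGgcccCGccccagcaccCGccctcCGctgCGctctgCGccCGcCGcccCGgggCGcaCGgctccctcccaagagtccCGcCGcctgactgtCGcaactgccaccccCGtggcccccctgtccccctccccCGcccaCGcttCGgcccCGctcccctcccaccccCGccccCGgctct
Fzd1: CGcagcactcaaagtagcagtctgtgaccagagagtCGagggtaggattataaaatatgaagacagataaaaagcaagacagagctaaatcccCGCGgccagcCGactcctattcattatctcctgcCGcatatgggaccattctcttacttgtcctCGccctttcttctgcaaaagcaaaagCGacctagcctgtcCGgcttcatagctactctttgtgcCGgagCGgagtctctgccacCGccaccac
Ror1: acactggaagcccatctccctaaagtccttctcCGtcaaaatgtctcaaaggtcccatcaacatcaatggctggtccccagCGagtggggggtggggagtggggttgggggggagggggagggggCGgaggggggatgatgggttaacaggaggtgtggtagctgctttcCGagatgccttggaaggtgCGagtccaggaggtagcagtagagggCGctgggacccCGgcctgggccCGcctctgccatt
Dkk2: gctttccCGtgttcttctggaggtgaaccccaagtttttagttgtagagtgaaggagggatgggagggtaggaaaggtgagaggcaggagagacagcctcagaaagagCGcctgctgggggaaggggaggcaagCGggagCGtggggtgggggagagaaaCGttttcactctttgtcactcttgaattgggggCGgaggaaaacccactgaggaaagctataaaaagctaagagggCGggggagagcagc
CG occurred 28 times in the Wnt6 stretch, 12 in Fzd1, 8 in Ror1 and 7 in Dkk2, against a median of 22 over the 45 windows of pathway genes and 6 over all 32851 windows. A count of CG at least as high as that of Wnt6 was found in 7.61% of all windows, as that of Fzd1 in 33.5%, as that of Ror1 in 43.0% and as that of Dkk2 in 46.3%. These 4 genes therefore ranged from a CG-dense start to starts near the median of all genes, and the other genes that fell had no window. The letters CTTTGAT and CTTTGAA, often given for TCF/LEF binding, were searched on both strands of windows reaching from 250 bases before the start to 50 after it. None of the 4 windows held either. CTTTGAT was in 2 of 45 windows (4.44%, Wnt11 and Wnt5b), against 3.73% of all windows. CTTTGAA was in 1 of 45 (2.22%, Dkk1), against 5.14%. The Wnt11 stretch, at chr7:98834862-98835111 on the plus strand, is shown for its match, in capitals, which begins 51 bases before the start and reads as the reverse complement of CTTTGAT.
Wnt11: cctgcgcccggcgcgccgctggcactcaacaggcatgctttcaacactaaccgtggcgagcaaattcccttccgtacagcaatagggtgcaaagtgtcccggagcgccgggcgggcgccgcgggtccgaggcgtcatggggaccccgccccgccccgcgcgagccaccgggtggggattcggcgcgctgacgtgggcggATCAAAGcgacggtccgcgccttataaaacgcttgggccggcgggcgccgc

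Of the 19 ligands, 8 had enough reads for a test. Of these, 3 fell (37.5%, against 11.5% of all genes tested) and none rose (9.67% of all genes tested did). All 8 log2 fold changes were negative, with a median of -0.73. Every HOM library was short of the minimum of reads for Wnt10a, so its direction was fixed by the filter on low counts. Wnt5a and Wnt4 had some HOM libraries short of it. Their direction, that share and that median partly follow from the filter. Wnt5a (chr14:28504750-28527448, plus strand), the textbook β-catenin-independent ligand, was at 0.837, 2.11 and 1.31 CPM in HOM replicates 1, 2 and 3, against 8.07, 6.18 and 6.46 CPM in WT replicates 1, 2 and 3. Every HOM library was far below every WT library, and HOM replicate 2 was the highest of the HOM libraries. Wnt5a had a change of -2.24 on the log2 scale (SE 0.32; adjusted p = 0.0021 by edgeR's quasi-likelihood test with Benjamini-Hochberg adjustment, as are all adjusted p-values below unless another tool is named). The call rested on 36 HOM reads and 160 WT reads. With each library left out in turn the log2 fold change stayed between -2.67 and -1.98. A predicted gene, Gm2670, overlaps an exon of Wnt5a on the opposite strand, and whether the counts used the strand is not known here.

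Wnt10a and Wnt6 are neighbours on chromosome 1, both on the plus strand and 6.19 kb apart, and both are known in mouse precursor cells for restraining fat cell formation. Wnt10a (chr1:74791516-74804179) was at 0.976, 1.06 and 0.653 CPM in HOM libraries, against 2.65, 3.65 and 3.54 CPM in WT libraries. Its log2 fold change was -1.84 (SE 0.34, adjusted p = 0.0057), on 22 HOM reads and 74 WT reads, and -1.99 to -1.66 with a library left out. Wnt6 (chr1:74771892-74785322) was at 9.34, 10.6 and 8.61 CPM in HOM libraries, against 17.6, 16.6 and 14.2 CPM in WT libraries. For both genes all HOM values lay below all WT values. For Wnt10a every HOM library was short of the minimum of reads for a test, so this gap and its direction were fixed by the filter. The log2 fold change of Wnt6 was -0.76 (SE 0.17, adjusted p = 0.0128). The Wnt6 call was lost without HOM replicate 3 (adjusted p = 0.0525) and without WT replicate 1 (adjusted p = 0.0597). The other 3 pairs of Wnt genes within 100 kb of each other each hold a gene with too few reads for a test.

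Counted per kb of exon, Wnt6 had the highest mean level of the ligands, 4.34 ± 0.45 CPM per kb in HOM libraries and 7.37 ± 0.82 CPM per kb in WT libraries. Wnt9a, which acts in joint and limb formation, came next, with 2.84 ± 0.22 CPM per kb in HOM libraries and 2.96 ± 0.34 CPM per kb in WT libraries. Its counts were 10.3, 9.09 and 9.005 CPM in HOM libraries and 11.0, 8.72 and 9.87 CPM in WT libraries. These values overlapped, with a difference of -0.06 on the log2 scale (SE 0.18, adjusted p = 0.832). Wnt11, a planar polarity ligand, followed at 1.87 ± 0.70 CPM per kb in HOM libraries and 2.63 ± 0.05 CPM per kb in WT libraries, and overlapped Wnt9a in WT libraries. The other 5 tested ligands averaged at most 1.33 CPM per kb in either genotype.

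The summed level of the 19 ligands was 11.8 ± 1.93 CPM per kb in HOM libraries (10.3 to 14.0) and 18.6 ± 0.93 CPM per kb in WT libraries (17.5 to 19.2). Wnt6 made up 36.9% of the sum in HOM libraries and 39.6% in WT libraries. Wnt9a made up 24.5% in HOM libraries and 16.0% in WT libraries. Wnt5a made up 1.503% in HOM libraries and 4.75% in WT libraries, and Wnt10a 3.06% in HOM libraries and 7.19% in WT libraries. The ligand pool was thus led by the same gene in both genotypes, and these shares are descriptions with no test of their own.

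**Figure D2:**
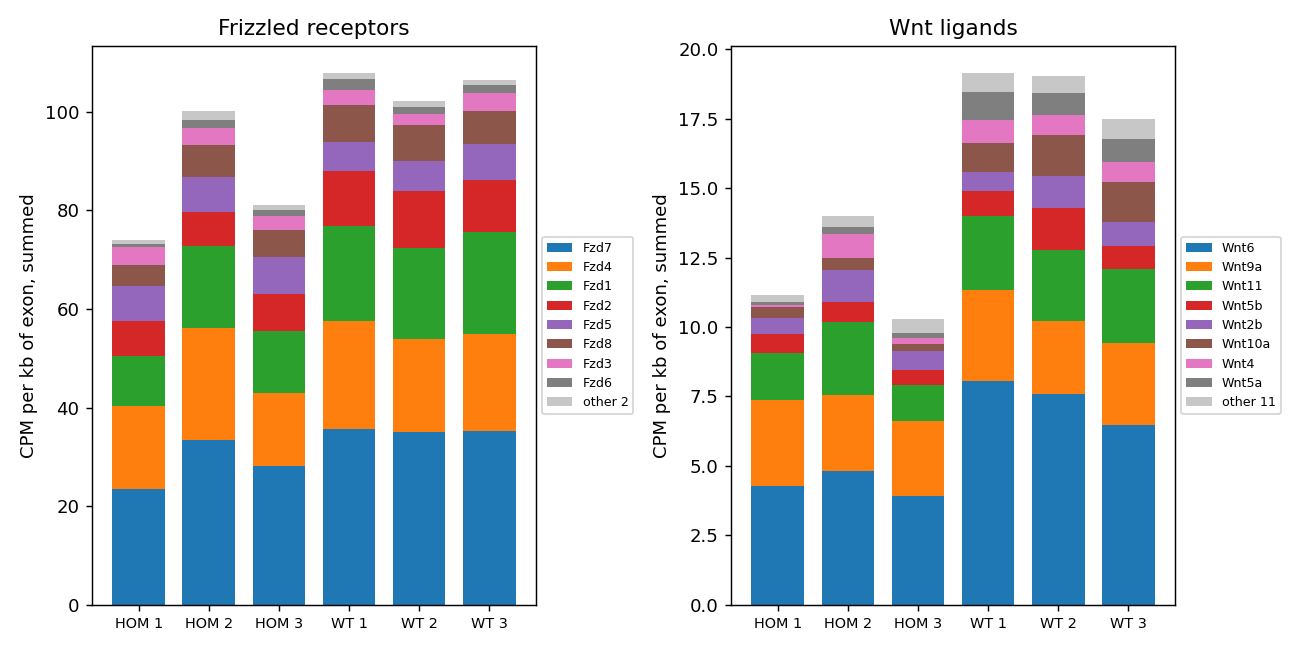
Summed CPM per kb of exon (y axis) of the Frizzled receptors (left) and Wnt ligands (right) in each library (x axis), stacked by gene. Fzd7 and Wnt6 form the tallest stacks of their families in each genotype, and the ligand sum is 10.3 to 14.0 in HOM libraries and 17.5 to 19.2 in WT libraries.

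Wnt4, a ligand that muscle fibres give to satellite cells in mice, was split among HOM libraries. It was at 0.279, 3.59 and 0.914 CPM in HOM libraries, against 3.35, 3.01 and 3.04 CPM in WT libraries. HOM replicate 2 was above every WT library, while HOM replicates 1 and 3 were well below them. This gave a difference of -0.88 on the log2 scale (SE 0.59, adjusted p = 0.307), and without HOM replicate 2 it was -2.35 (adjusted p = 0.0041). In Wnt11, too, HOM replicate 2 was the highest HOM library and lay within the WT range, at 7.11, 10.9 and 5.22 CPM in HOM libraries and 11.0, 10.6 and 11.0 CPM in WT libraries. Its log2 fold change was -0.48 (adjusted p = 0.205), and -0.82 without HOM replicate 2 (adjusted p = 0.0188). Wnt5b and Wnt2b had log2 fold changes of -0.70 (adjusted p = 0.169) and -0.13 (adjusted p = 0.819).

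The 11 untested ligands held 30 HOM reads and 46 WT reads together. Wnt7a, which drives symmetric division of satellite cells in mice through Fzd7, had 0 HOM reads and 1 WT read. For 3 reads over a group, the limit that a count of 0 allows, the level is 0.124 CPM in HOM libraries. Wnt3a, a standard activator of β-catenin, had 1 HOM read and 0 WT reads, and Wnt3 the same. Wnt8b had 2 HOM reads and 0 WT reads, Wnt9b 2 and 1, Wnt8a 3 and 3, Wnt2 2 and 6, Wnt7b 2 and 7, Wnt10b 7 and 11, and Wnt16 8 and 6. At this depth none of these can be ordered between genotypes. Wnt1 had 2 HOM reads and 11 WT reads, a ratio of scaled reads of 0.173 with an exact 95% interval of 0.0186 to 0.793. That interval covers counting error only, and without a filter on low counts the adjusted p for Wnt1 was 0.143.

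Of the 10 Frizzled receptors, 9 were tested. Of these, 2 fell, none rose and 7 did not pass, with a median log2 fold change of -0.31. The share called was 22.2%, near the 21.1% of all genes tested. Fzd2 (chr11:102604396-102608058, plus strand), which can bind Wnt5a, was at 25.8, 25.2 and 27.4 CPM in HOM libraries, against 40.6, 42.6 and 38.5 CPM in WT libraries. The 3 HOM values lay close together and well below the WT values, HOM replicate 2 included. Fzd2 changed by -0.63 on the log2 scale (SE 0.12, adjusted p = 0.0055), and it passed with each library left out (-0.67 to -0.60). Fzd1 (chr5:4753839-4758035, minus strand), a receptor for β-catenin signalling, was at 42.2, 70.2 and 52.2 CPM in HOM libraries, against 81.2, 77.7 and 86.8 CPM in WT libraries. The groups did not overlap, and HOM replicate 2 lay nearest to WT. Its log2 fold change was -0.57 (SE 0.17, adjusted p = 0.0354). Without HOM replicate 2 it was -0.80 (adjusted p = 0.0011), and the call was lost without any 1 of the other 5 libraries (adjusted p = 0.0712 to 0.108) or with Y-linked reads taken as a covariate (adjusted p = 0.0592).

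Fzd7, the receptor of Wnt7a on satellite cells, had the highest mean level per kb of the Frizzled family, at 28.4 ± 5.01 CPM per kb in HOM libraries and 35.3 ± 0.26 CPM per kb in WT libraries. It made up 33.3% of the summed Frizzled level in HOM libraries and 33.5% in WT libraries. Its values were 107, 152 and 127 CPM in HOM libraries and 161, 159 and 159.7 CPM in WT libraries. Every HOM value was below every WT value, yet the difference of -0.31 on the log2 scale (SE 0.14) did not pass (adjusted p = 0.126), and without HOM replicate 2 it was -0.45 (adjusted p = 0.0216). Fzd4, also the receptor of the non-Wnt ligand norrin, was at 113, 152 and 100.6 CPM in HOM libraries and 147, 126 and 133 CPM in WT libraries. Its groups overlapped, with a difference of -0.15 on the log2 scale (SE 0.15, adjusted p = 0.516).

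Per kb of exon, Fzd4 followed at 18.1 ± 3.95 CPM per kb in HOM libraries and 20.1 ± 1.58 CPM per kb in WT libraries. Fzd1 overlapped it in both genotypes, at 13.1 ± 3.37 CPM per kb in HOM libraries and 19.5 ± 1.10 CPM per kb in WT libraries. Further down, Fzd8 lay below Fzd5 in every HOM library and overlapped it in WT libraries. The summed Frizzled level was 85.1 ± 13.5 CPM per kb in HOM libraries (74.0 to 100.1) and 106 ± 2.98 CPM per kb in WT libraries (102 to 108). The other tested receptors had log2 fold changes of -0.60 for Fzd6, -0.41 for Fzd8, 0.17 for Fzd3, 0.19 for Fzd5 and 0.32 for Fzd9 (adjusted p = 0.0771 to 0.563). Without HOM replicate 2, Fzd6 was at -0.89 (adjusted p = 0.0363), Fzd8 at -0.56 (adjusted p = 0.0143) and Fzd9 at -0.14 (adjusted p = 0.819). Fzd10 had too few reads for the test, 2 in HOM and 18 in WT libraries, a scaled ratio of 0.106 (exact 95% interval 0.0119 to 0.442, counting error only). Without a filter on low counts, where 15.7% of all genes tested were called, its log2 fold change was -3.04 (adjusted p = 0.0131).

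**Figure D3:**
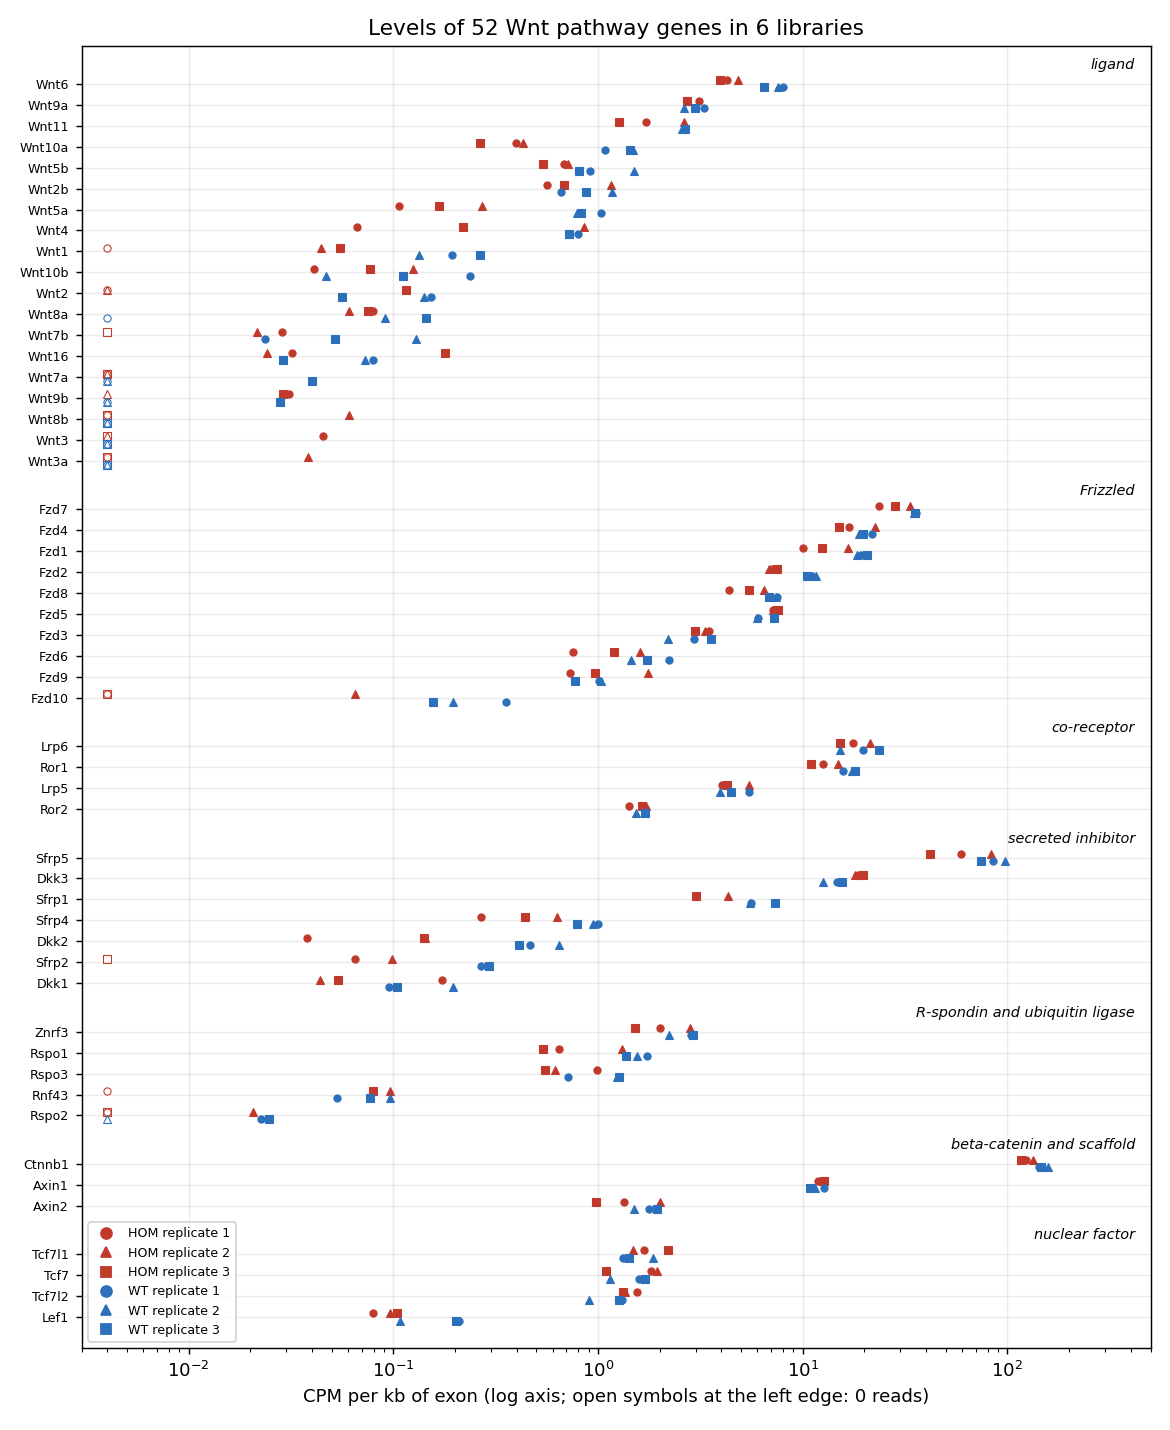
Level of each of the 52 genes in CPM per kb of exon (x axis, log scale) in the 3 HOM libraries (red) and 3 WT libraries (blue), with symbol shape giving the replicate and open symbols 0 reads. Ctnnb1 is highest at 124 in HOM libraries and 149 in WT libraries, and several untested ligands have libraries with 0 reads, drawn at the left edge.

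Among the 4 co-receptors, Ror1 fell and 3 did not pass (25% called, against 21.1% of all genes tested). Ror1 (chr4:100095791-100444765, plus strand), a receptor tyrosine kinase that binds Wnt5a, was at 72.2, 85.9 and 63.2 CPM in HOM libraries, against 90.8, 100.2 and 103.8 CPM in WT libraries. All HOM values were below all WT values, with HOM replicate 2 and WT replicate 1 closest together. Ror1 changed by -0.41 on the log2 scale (SE 0.13, adjusted p = 0.0485). The call was kept without HOM replicate 2 (-0.54, adjusted p = 0.0087) and lost without any 1 of the other 5 libraries (adjusted p = 0.0821 to 0.175), by DESeq2 (adjusted p = 0.05004), with the Y-linked covariate (adjusted p = 0.113) and with the replicate number as a block (adjusted p = 0.0718).

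Its paralogue Ror2 differed by -0.05 on the log2 scale (SE 0.20, adjusted p = 0.892). Lrp6, a co-receptor for β-catenin signalling, was at 241, 292 and 208 CPM in HOM libraries and 270, 208 and 321 CPM in WT libraries. These ranges overlapped almost entirely, and the difference of -0.11 on the log2 scale (SE 0.18, adjusted p = 0.696) turned to 0.05 without WT replicate 3. Per kb of exon Lrp6 was at 18.1 ± 3.10 CPM per kb in HOM libraries and 19.5 ± 4.16 CPM per kb in WT libraries. Ror1 was at 12.8 ± 1.99 CPM per kb in HOM libraries and 17.1 ± 1.17 CPM per kb in WT libraries, overlapping Lrp6 in WT libraries. Lrp5, the close relative of Lrp6, differed by -0.02 on the log2 scale (SE 0.16, adjusted p = 0.953).

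Of 5 secreted inhibitors tested, 2 fell, 1 rose and 2 did not pass. Over all genes tested 11.5% fell and 9.67% rose, and 5 genes are too few to set against these shares. Dkk2 (chr3:132085292-132180304, plus strand), which binds Lrp5 and Lrp6, was at 0.139, 0.528 and 0.522 CPM in HOM libraries, against 1.73, 2.38 and 1.52 CPM in WT libraries. Both groups were low, on 10 HOM reads and 42 WT reads, and did not overlap. Every HOM library was short of the minimum of reads for a test. The lack of overlap and the direction were therefore fixed by the filter on low counts. Dkk2 changed by -2.14 on the log2 scale (SE 0.48, adjusted p = 0.0133), and -1.95 without WT replicate 2, where the call was lost (adjusted p = 0.0504). Sfrp1 (chr8:23411502-23449632, plus strand), a secreted Frizzled-like protein that binds Wnts, was at 13.1, 18.9 and 13.2 CPM in HOM libraries, against 24.5, 24.1 and 31.9 CPM in WT libraries. All HOM values were again below all WT values, with HOM replicate 2 the nearest to WT. The log2 fold change was -0.82 (SE 0.19, adjusted p = 0.0136), and the call was lost without HOM replicate 1 (adjusted p = 0.0536), HOM replicate 3 (adjusted p = 0.0566) or WT replicate 3 (adjusted p = 0.0527).

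Dkk3 (chr7:112116017-112159057, minus strand), a divergent member of the Dickkopf family, was the 1 gene that rose. It was at 62.7, 60.8 and 66.2 CPM in HOM libraries, against 49.4, 42.3 and 52.2 CPM in WT libraries. Each HOM library was above each WT library, and HOM replicate 2 was the lowest of the HOM libraries. Dkk3 changed by 0.40 on the log2 scale (SE 0.12, adjusted p = 0.0372). The call was lost without HOM replicate 1, HOM replicate 3, WT replicate 1 or WT replicate 2 (adjusted p = 0.0831 to 0.119), with library totals in place of TMM scaling (adjusted p = 0.0504), by DESeq2 (adjusted p = 0.0609), without the 2 libraries high in Gm42418 (adjusted p = 0.0632), with the Y-linked covariate (adjusted p = 0.0985) and with the replicate block (adjusted p = 0.0646).

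Sfrp5, an inhibitor known to bind Wnt5a in mouse fat, had the highest mean level per kb of the inhibitors, at 61.6 ± 20.9 CPM per kb in HOM libraries and 85.6 ± 11.7 CPM per kb in WT libraries. It was at 113, 158 and 79.3 CPM in HOM libraries and 162, 185 and 141 CPM in WT libraries. HOM replicate 2 lay within the WT range, and HOM replicates 1 and 3 lay below it. The log2 fold change was -0.47 (SE 0.22, adjusted p = 0.146). It was -0.76 without HOM replicate 2 (adjusted p = 0.0068), and passed with the replicate block (adjusted p = 0.0428). Sfrp4 was at 1.115, 2.64 and 1.83 CPM in HOM libraries and 4.15, 3.96 and 3.29 CPM in WT libraries. All HOM values were below all WT values, at -0.99 on the log2 scale (SE 0.33, adjusted p = 0.0585) and -1.35 without HOM replicate 2 (adjusted p = 0.0172). The untested Sfrp2 had 3 HOM reads and 14 WT reads, a scaled ratio of 0.204 (exact 95% interval 0.0376 to 0.731, counting error only), and Dkk1 had 5 HOM reads and 7 WT reads.

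**Figure D4:**
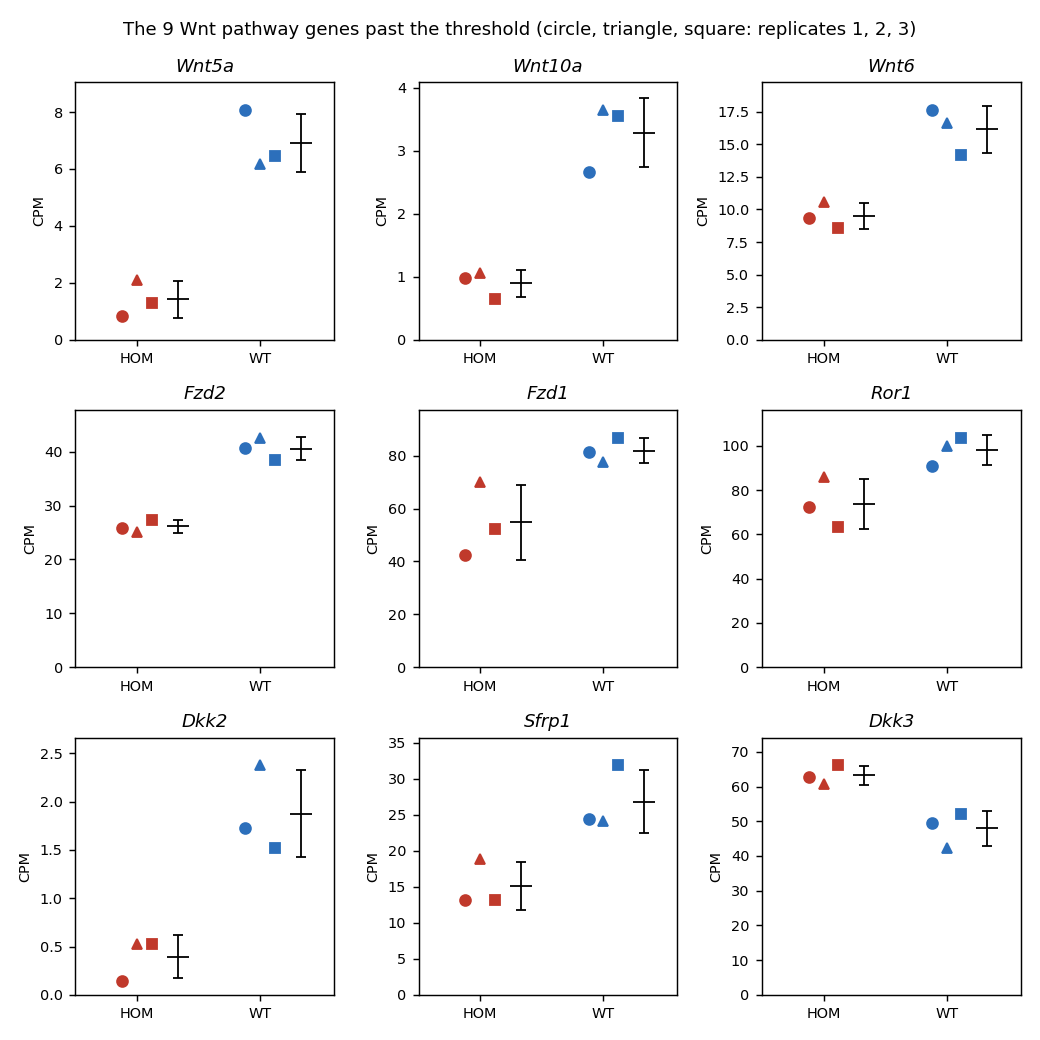
CPM of the 9 genes past the threshold (y axis, from 0) in HOM libraries (left) and WT libraries (right), with the mean and SD in black and symbols giving replicates 1, 2 and 3. The groups do not overlap for any of the 9, and HOM replicate 2 (triangle) lies nearest to WT for 8 of them, Fzd2 being the exception. For Wnt10a and Dkk2 the lack of overlap was fixed by the filter on low counts.

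The R-spondins strengthen Wnt signals by drawing the ligases Znrf3 and Rnf43 away from Frizzled, which these ligases otherwise mark for removal. Of these 5 genes 3 were tested and none passed, with log2 fold changes of -0.86 for Rspo1, -0.57 for Rspo3 and -0.32 for Znrf3. Rspo1, which acts in muscle repair in mice, was at 1.25, 2.54 and 1.04 CPM in HOM libraries and 3.35, 3.01 and 2.66 CPM in WT libraries. All HOM values were below all WT values (SE 0.37, adjusted p = 0.123), and without HOM replicate 2 the log2 fold change was -1.38 (adjusted p = 0.0206). Znrf3 was at 15.8, 22.3 and 12.01 CPM in HOM libraries and 22.4, 17.6 and 22.9 CPM in WT libraries. Its groups overlapped through HOM replicate 2 (SE 0.22, adjusted p = 0.314), and without that library the log2 fold change was -0.60 (adjusted p = 0.0370). Rnf43 had 10 HOM reads and 11 WT reads, and Rspo2 had 1 HOM read and 2 WT reads.

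None of the 3 genes of β-catenin and its scaffold passed the test. Ctnnb1, which encodes β-catenin, had the highest level per kb of all 52 genes, at 124 ± 8.12 CPM per kb in HOM libraries and 149 ± 8.47 CPM per kb in WT libraries. It was at 637, 690 and 606 CPM in HOM libraries and 739, 822 and 756 CPM in WT libraries. All HOM values were below all WT values, with a difference of -0.26 on the log2 scale (SE 0.13, adjusted p = 0.168). Exons of Ulk4 overlap Ctnnb1 on the opposite strand. Axin1, the scaffold of the destruction complex, was at 45.5, 48.3 and 48.4 CPM in HOM libraries and 48.8, 43.9 and 41.5 CPM in WT libraries (log2 fold change 0.08, SE 0.11, adjusted p = 0.637). Axin2, a feedback scaffold whose RNA is widely read as a measure of β-catenin activity, was at 7.39, 11.0 and 5.35 CPM in HOM libraries and 9.81, 8.24 and 10.6 CPM in WT libraries. HOM replicate 2 had the highest value of all 6 libraries and HOM replicates 1 and 3 the lowest. Axin2 differed by -0.27 on the log2 scale (SE 0.26, adjusted p = 0.498), and -0.59 without HOM replicate 2 (adjusted p = 0.0887).

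The TCF/LEF factors bring β-catenin to DNA, and none of the 3 tested passed. Tcf7l1, usually a repressor, was at 6.55, 5.81 and 8.61 CPM in HOM libraries and 5.19, 7.29 and 5.57 CPM in WT libraries (log2 fold change 0.22, SE 0.24, adjusted p = 0.535). Tcf7 was at 4.74, 5.07 and 2.87 CPM in HOM libraries and 4.15, 3.01 and 4.43 CPM in WT libraries. Its difference was 0.12 on the log2 scale (SE 0.29, adjusted p = 0.790), and -0.04 without HOM replicate 2 (adjusted p = 0.939). Tcf7l2 had HOM values all above WT values, with a difference of 0.27 on the log2 scale (SE 0.19) that did not pass (adjusted p = 0.334). Per kb, Tcf7 overlapped both of the others in each genotype, while Tcf7l2 lay below Tcf7l1 in every WT library. Mean levels were 1.78 ± 0.37, 1.61 ± 0.45 and 1.41 ± 0.12 CPM per kb in HOM libraries for Tcf7l1, Tcf7 and Tcf7l2, against 1.53 ± 0.29, 1.47 ± 0.29 and 1.16 ± 0.22 CPM per kb in WT libraries. Lef1, often raised by Wnt signals, had too few reads for the test. It was at 0.697, 0.846 and 0.914 CPM in HOM libraries and 1.85, 0.951 and 1.77 CPM in WT libraries, all HOM values below all WT values. On 20 HOM reads and 36 WT reads the scaled ratio was 0.529 (exact 95% interval 0.290 to 0.938, counting error only), and without a filter the adjusted p was 0.259.

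The number of Wnt genes called depended on HOM replicate 2. It was the highest of the 3 HOM libraries for 24 of the 27 genes with a negative log2 fold change (88.9%), against 51.9% of all 7100 tested genes with a negative one. Without it 18 genes passed, 17 lower and 1 higher, in a fit that called 27.5% of all genes tested. All 9 calls were among the 18, joined by Fzd6, Fzd7, Fzd8, Rspo1, Sfrp4, Sfrp5, Wnt11, Wnt4 and Znrf3. With any 1 of the other libraries left out, 4 to 6 of the 9 passed, and fewer genes passed over the whole table as well. These fits called 10.9% of all genes tested without HOM replicate 1 or HOM replicate 3, 11.1% without WT replicate 1, 12.4% without WT replicate 2 and 14.7% without WT replicate 3. Wnt5a, Wnt10a and Fzd2 passed in each of these 6 fits. The fit leaves 2 libraries in 1 group, which are assumed to vary like the rest. Marker sums of some other cell types also set HOM replicate 2 apart. Fibroblast markers summed to 4879 CPM in it, against 3898 and 3536 CPM in HOM replicates 1 and 3, and tendon markers to 187 CPM, against 84.8 and 69.8 CPM. Erythroid markers summed to 876 CPM, against 269 and 215 CPM, and endothelial markers to 693 CPM, against 369 and 469 CPM. Adipocyte markers were lowest in it, at 55.7 CPM, against 78.5 and 389 CPM. Its pericyte and smooth muscle (12629 CPM), macrophage (47.8 CPM) and muscle fibre sums (92.8 CPM) lay between those of HOM replicates 1 and 3. Schwann and glial markers summed to 3972 CPM in it, against 3792 and 3021 CPM. Among HOM libraries, Y-linked reads, Gm42418 and the marker sums that set replicate 2 apart differed in the same library as most Wnt values. In WT libraries the summed ligand level was 19.2, 19.0 and 17.5 CPM per kb in replicates 1, 2 and 3. Of these, only WT replicate 2 was high in Gm42418, and only WT replicate 1 lacked Y-linked reads. The part of these traits in the result was not tested.

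**Figure D5:**
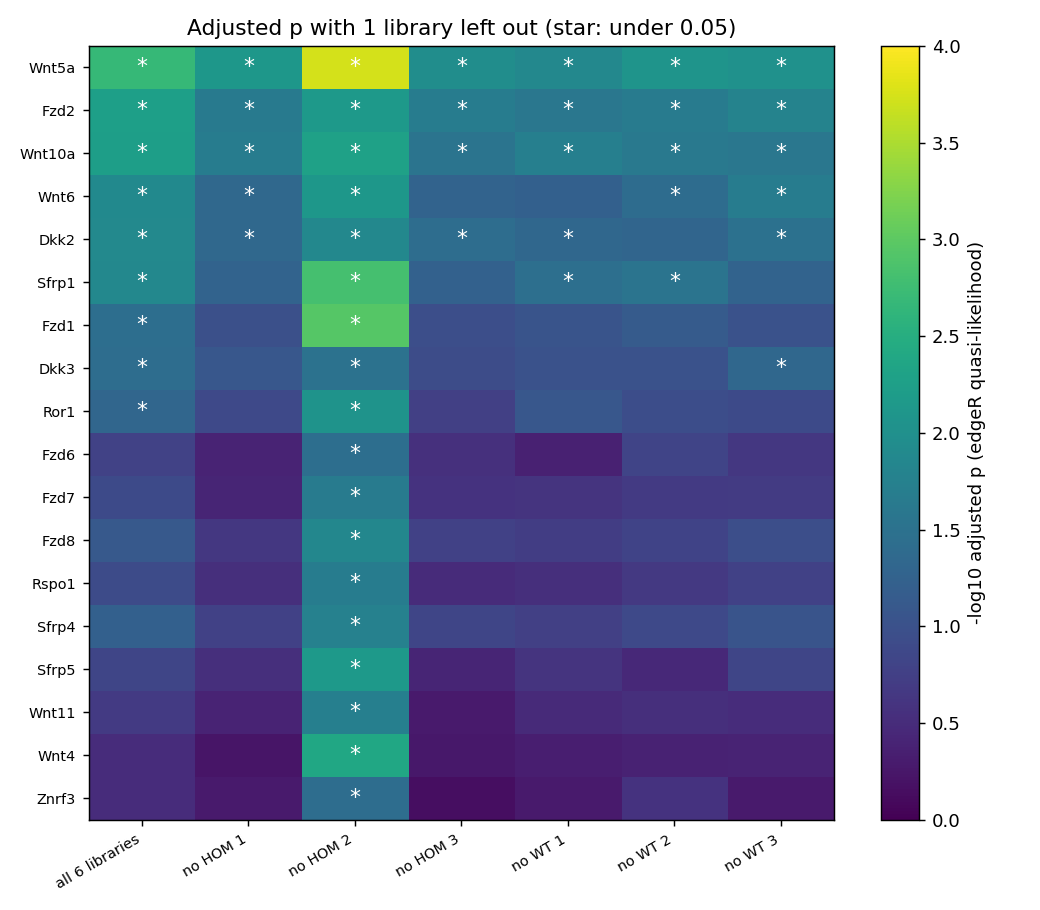
Adjusted p as -log10 (colour) for each gene called in at least 1 of the fits (rows), with all 6 libraries and with each library left out (columns), where a star is an adjusted p under 0.05. Leaving out HOM replicate 2 gives 18 called genes, and leaving out any other library gives 4 to 6.

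The rest of the pathway was read from 6 lists by role, which hold 115 genes outside the 52. Of the 99 tested, 3 rose and 16 fell (19.2% called, against 21.1% of all genes tested), with a median log2 fold change of -0.08. The share called was thus near the background. Over all genes tested, 11.5% were lower and 9.67% higher, and no list below was tested against these shares. Cytoplasmic transduction, with 20 of 20 genes tested, had 1 call, a rise of the casein kinase Csnk1g1 (log2 fold change 0.71, SE 0.15, adjusted p = 0.0104), and a median of 0.10. Of 3 genes of ligand release, 2 were tested and Wls, the carrier that brings Wnts to the cell surface, fell. Wls was at 61.3, 76.3 and 68.3 CPM in HOM libraries, against 93.1, 110.8 and 96.8 CPM in WT libraries. The groups were apart, at a change of -0.54 on the log2 scale (SE 0.12, adjusted p = 0.0127), lost without HOM replicate 1 (adjusted p = 0.0519). Notum, an enzyme that inactivates Wnts and is itself a target gene, was not tested, on 6 HOM reads and 35 WT reads. Without a filter its log2 fold change was -2.58 (SE 0.65, adjusted p = 0.0011); it is named here after its values were seen.

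Of 11 tested extracellular modulators, 5 fell and none rose (11.5% of all genes tested fell), with a median log2 fold change of -0.58. The glypican Gpc3 fell by 1.09 on the log2 scale (SE 0.14, adjusted p = 0.0012) and Igfbp4, which can bind Frizzled and Lrp6 and keep Wnts from them, by 0.84 (SE 0.17, adjusted p = 0.0077), and both passed with each library left out. Sostdc1 fell by 0.62 (adjusted p = 0.0264) and was lost without HOM replicate 3, WT replicate 2 or WT replicate 3 (adjusted p = 0.0728 to 0.0867). Frzb, a relative of the Sfrp proteins, fell by 0.82 (adjusted p = 0.0398) and was lost without any 1 library but HOM replicate 2 (adjusted p = 0.0570 to 0.121). The fifth, Gpc4, fell by 0.49 (adjusted p = 0.0480) and was lost likewise (adjusted p = 0.0564 to 0.141).

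Among 26 tested planar polarity and non-canonical genes 1 rose and 2 fell, with a median of -0.02. The polarity scaffold Scrib rose (log2 fold change 0.50, SE 0.12, adjusted p = 0.0163; 0.0611 without HOM replicate 3). The cadherin Celsr1 fell (-1.01, SE 0.25, adjusted p = 0.0189), and was lost without HOM replicate 1, HOM replicate 3, WT replicate 1 or WT replicate 3 (adjusted p = 0.0541 to 0.0822). Prickle2 fell (-0.47, SE 0.12, adjusted p = 0.0213) and was lost without HOM replicate 1, HOM replicate 3, WT replicate 1 or WT replicate 2 (adjusted p = 0.0620 to 0.0768). Of 19 tested nuclear cofactors 1 rose and 1 fell. Pygo1, a partner of β-catenin on chromatin, was at 3.90, 5.81 and 4.83 CPM in HOM libraries, against 13.2, 13.9 and 13.7 CPM in WT libraries. Every HOM library held well under the WT level, at a change of -1.47 on the log2 scale (SE 0.20, adjusted p = 0.0016) that passed with each library left out. The acetyltransferase Ep300 rose (0.44, SE 0.13, adjusted p = 0.0383) and was lost without any 1 library but HOM replicate 2 (adjusted p = 0.0775 to 0.127).

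Of 23 tested genes often used as targets of β-catenin, 7 fell and none rose, with a median log2 fold change of -0.26. Of all genes tested, 11.5% fell. Many of the 23 answer to other pathways too. The cyclin Ccnd2 was at 48.1, 46.6 and 59.4 CPM in HOM libraries, against 104, 122 and 115 CPM in WT libraries (log2 fold change -1.15, SE 0.13, adjusted p = 0.00077). The cyclin Ccnd1 was at 20.9, 26.6 and 20.7 CPM in HOM libraries, against 74.3, 106 and 58.2 CPM in WT libraries (log2 fold change -1.80, SE 0.21, adjusted p = 0.00087). In both, all HOM libraries lay far below all WT libraries. The receptor Ephb2 fell by 1.45 on the log2 scale (SE 0.21, adjusted p = 0.0021) and the AP-1 factor Jun by 0.93 (SE 0.17, adjusted p = 0.0055). These 4 calls held with each library left out. The others were Tnfrsf19, Nkd1 and Snai2. Myc, also on the list, differed by 0.19 on the log2 scale (adjusted p = 0.349), and Axin2, given above, did not pass.

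Marker genes of several cell types moved in the same samples. Over all genes tested, 11.5% were lower and 9.67% higher, and no marker list was tested against these shares. Of 10 satellite cell markers 6 fell, with Pax7, the factor that defines these cells, at 23.0, 52.2 and 19.4 CPM in HOM libraries and 86.6, 66.1 and 74.7 CPM in WT libraries. Of 12 fibroblast markers 8 fell and 1, Pdgfra, rose; they summed to 3536 to 4879 CPM in HOM libraries and 7233 to 7638 CPM in WT libraries. Of 6 tendon markers 3 fell, with a sum of 69.8 to 187 CPM in HOM libraries and 186 to 212 CPM in WT libraries. Of 10 pericyte and smooth muscle markers 3 rose and 1 fell, at 12303 to 13156 CPM in HOM libraries and 11194 to 16026 CPM in WT libraries. None of 9 endothelial markers passed, at 369 to 693 CPM in HOM libraries and 451 to 729 CPM in WT libraries. The labelled cell type's markers were therefore present in all 6 libraries, beside those of other cells.

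Of 7 Schwann and glial markers 3 rose and 3 fell, with sums of 3021 to 3972 CPM in HOM libraries and 3624 to 4586 CPM in WT libraries. Of 8 muscle fibre markers 2 fell, at 74.6 to 141 CPM in HOM libraries and 109 to 155 CPM in WT libraries, and of 5 erythroid markers 3 fell, at 215 to 876 CPM in HOM libraries and 887 to 1575 CPM in WT libraries. Of 7 macrophage markers 5 were tested and 1 rose, at 34.2 to 50.6 CPM in HOM libraries and 33.4 to 63.0 CPM in WT libraries. Of 6 adipocyte markers 3 were tested and all 3 rose, with a sum of 55.7 to 389 CPM in HOM libraries and 0.461 to 1.14 CPM in WT libraries. The WT sums lie below the read minimum for a single gene. These 3 therefore met it through HOM libraries, and the direction of their change was fixed by the filter. Kera, Pi16 and Myh2, among the markers that fell, met it through WT libraries. Lep was at 0 in every library but WT replicate 2. Cidec and Retn were at 0 in WT replicates 1 and 2, and Cfd in WT replicate 2. The part of these cell types in the Wnt values was not tested. In bulk samples, fewer cells of a type and less RNA per cell cannot be told apart.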

How the data were processed

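Per the labels' protocols, total RNA of sorted satellite cells was made into libraries with a stranded, ribosomal-RNA-depleted kit. The authors deposited raw read counts per gene. Per the submitters' processing notes, mm10 was the build and the tools were HTSeq 0.6.1, STAR 2.5.2b and Trimmomatic 0.32. What each did, the annotation release and the strand setting are not given in these sources. Of 39059 genes, 38861 matched GENCODE M21 (GRCm38). Summary lines (45.0 to 49.8% of reads) were left out. No 2 libraries of a genotype agreed within sampling noise (chi-square 8.35 to 22.5 per gene).

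edgeR 4.0.16 in R 4.3.3 was used: filterByExpr (minimum count 10, minimum total 15), TMM, and the quasi-likelihood test of HOM against WT without covariates (Benjamini-Hochberg over 14099 genes, threshold 0.05, common coefficient of variation 0.162). Log2 fold changes are HOM minus WT, with an SE of size over root F. CPM use TMM-scaled totals, and CPM per kb the union of exons. Reads carry no molecular identifiers, so intervals and the floor of 3 reads cover counting error only. Of the 52 genes, 11 overlap exons of another gene, mostly predicted genes on the opposite strand, which makes their counts less certain. In counts simulated for this comparison, with 200 of 13887 genes changed, 80.9% of 2-fold and 99.1% of 4-fold changes were recovered, with 5.26% false calls.

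The members, lists, tests and alternatives were chosen with earlier results of these data known. Described in full are genes called, the 2 highest per kb in each role, and Axin2, Lef1, Tcf7 and Ctnnb1; in other lists, up to 4 called genes with the smallest p. Other genes given values, among them Wnt4, Wnt11, Sfrp4, Fzd10, Gpc4 and Notum, were chosen after their values were seen. Alternatives were DESeq2 size factors, library totals, the DESeq2 1.42.0 Wald test, no filter, 1 CPM in 3 samples, a replicate block, testing against a 1.5-fold change, a covariate for Y-linked reads, and leaving out each library or both that were high in Gm42418.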

Additional observations from a re-analysis of the deposited data

How the results depend on the processing

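Of 52 Wnt pathway genes, 9 passed. The count was 2 in a test against a fold change of 1.5 (Wnt5a and Wnt10a), 18 without the 2 libraries high in Gm42418, and 4 to 18 with each library left out; it was 6 with Y-linked reads as a covariate, 7 by DESeq2, 8 with library totals and 13 with no filter. Over the whole table, 2980 genes passed (21.1%), with 533, 3858 and 1576 to 4002 under the first 3 of these changes, 1933 with the Y-linked covariate, 2710 by DESeq2, 2818 with library totals and 4054 with no filter (15.7% of the 25748 then tested). The 19 calls among other pathway genes became 5, 29 and 12 to 29, and 31 with no filter. The directions of Lrp6 (-0.26 to 0.045), Wnt9a (-0.14 to 0.018) and Tcf7 (-0.041 to 0.34), none of them called, turned in log2 fold change when 1 library was left out. So did those of Fzd9 (-0.14 without HOM replicate 2), Lrp5 (up to 0.12), Ror2 (up to 0.04) and Wnt2b (up to 0.09), also not called. Without the 2 Gm42418 libraries Fzd3 was at -0.01, Fzd9 at -0.07 and Tcf7 at -0.18. With the Y-linked covariate Wnt2b was at 0.07. The cause was not tested.

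No sign of pairing by replicate number was seen. Deviations of same-numbered libraries from their group means correlated at -0.036, 0.022 and -0.096, and those of differently numbered ones at -0.041 to 0.095. So few libraries cannot exclude pairing. With the replicate block 8 Wnt genes passed, 7 of them among the 9 (without Ror1 and Dkk3, with Sfrp5), and 2437 genes over the whole table. Depth limited the 17 untested genes, which held 71 HOM reads and 134 WT reads in all.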
